A study of Homo sapiens with 2 samples.

Results

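SMAD proteins carry the signals of the TGF-beta superfamily from receptors at the cell surface to the nucleus. Receptors for BMPs phosphorylate SMAD1 and SMAD5, and receptors for TGF-beta and activins phosphorylate SMAD2 and SMAD3. Both kinds then pair with the common SMAD4 and bind DNA, while the inhibitory SMAD6 and SMAD7 are induced by the pathway and damp it. ID1, ID2 and ID3 are classic targets of BMP signals, and TGF-beta can raise or repress them. ID proteins lack a DNA-binding region and hold basic helix-loop-helix (bHLH) transcription factors, above all the E proteins, away from DNA. In lung epithelial tumours TGF-beta signalling is known both for growth arrest and for mesenchymal change.

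The genes described here are SMAD1 to SMAD7 and ID1 to ID3, chosen by name as 10 of the 27685 genes in the deposited table, and all 10 were present and reached the expression minimum. RNA came from NCI-H838, an established human lung adenocarcinoma line, grown in serum-containing medium. One culture was transiently transfected with pCDH-LINC00472, a plasmid carrying the full-length long noncoding RNA LINC00472. The control culture received the empty pCDH plasmid, and both were lysed 48 hours after lipid-mediated transfection. The labels do not give the share of cells that took up the plasmid. Each group held 1 library, so no comparison below has a replicate check and no p-value is given. The 95% intervals cover counting error only, and duplicate copies of a molecule would make them too narrow.

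The LINC00472 library held 21093055 gene counts and the control library 54823706. LINC00472 itself had 5655 counts in the LINC00472 library against 2563 in the control, or 25.3 against 4.74 FPKM (fragments per kilobase, a level per transcript length scaled to depth). Of 6 epithelial markers, 5 exceeded 1 FPKM in each library. Of 4 lung adenocarcinoma markers, NKX2-1 and SFTPB were at 0 counts in both libraries, SFTPC had 0 counts in the LINC00472 library against 7 in the control, and NAPSA was at 2.40 against 0.742 FPKM. The summed epithelial markers reached 65.6 FPKM in the LINC00472 library and 291 FPKM in the control. KRT7, KRT8 and KRT18 made up nearly all of both sums, whereas EPCAM was at 1.18 against 1.19 FPKM and CDH1 at 2.098 against 1.34 FPKM, and the part of these markers in the results below was not tested. Summed endothelial markers stayed at 0.165 and 0.153 FPKM, fibroblast markers at 1.93 and 1.95 FPKM, and leukocyte markers at 7.90 and 3.07 FPKM, nearly all of it CD14 (7.77 and 2.75 FPKM). In bulk RNA, fewer cells with a transcript and less of it per cell cannot be told apart.

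A gene is called lower or higher where its mean level was at least 1 CPM (counts per 1000000 of the TMM-scaled library), its ratio at least 2-fold and its counting interval free of equality. By that rule 3 of the 10 genes were lower, ID1, ID2 and ID3, and 0 were higher. The background was wide, because 23.8% of all 14012 genes at the minimum were lower and 16.3% were higher, 40.2% in all. That balance depended on the scaling: TMM gave 3341 lower and 2288 higher genes, total counts 2297 and 3155, and upper quartile factors 1993 and 3531. Among protein-coding genes alone, 26.3% were lower and 11.2% were higher. The median log2 ratio of LINC00472 over control was -0.19 over all genes, -2.0 over the ID genes and 0.19 over the SMAD genes.

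**Figure D1:**
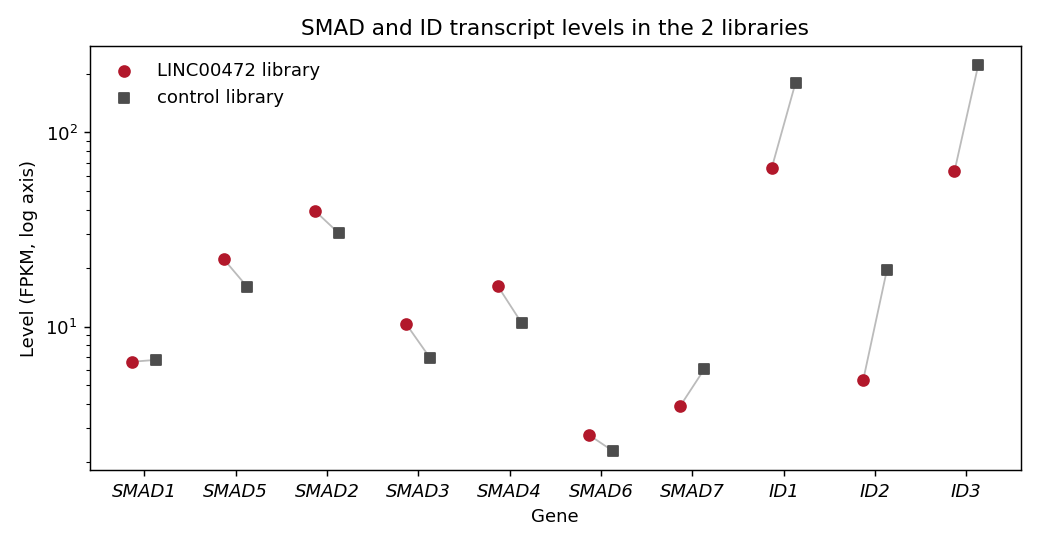
Levels of the 10 genes in FPKM on a log axis, with the LINC00472 library as circles and the control library as squares (1 library each). ID1 and ID3 were the highest of the 10 in both libraries, and all 3 ID genes lay lower in the LINC00472 library.

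The BMP-branch SMADs differed between themselves. SMAD1 (NCBI gene 4086) had 456 counts in the LINC00472 library against 1171 in the control, or 6.58 against 6.73 FPKM. Its log2 ratio of TMM-scaled counts was -0.27 (interval -0.43 to -0.11), with total counts it was 0.02, and with upper quartile factors it was 0.12, so its direction depended on the scaling. SMAD5 (4090), which transduces the same receptors, had 3662 counts in the LINC00472 library against 6365 in the control, or 22.2 against 15.95 FPKM. Its log2 ratio was 0.29 (0.23 to 0.35), and -0.28 when adjusted for transcript length. Neither gene met the size rule. The ratio of SMAD1 lay below that of SMAD5 by 0.56 on the log2 scale (difference -0.56, interval -0.73 to -0.40), a difference that does not depend on library scaling. It did depend on length: adjusted for transcript length, SMAD1 at -0.02 lay above SMAD5. Adjusted for the length implied by the deposited counts and FPKM, SMAD1 was at -0.24 and SMAD5 at -0.37. Adjusted for intron length, SMAD1 at -0.58 lay below SMAD5 at 0.21.

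The TGF-beta and activin branch lay slightly above equality with every library scaling tried. SMAD2 (4087) was the most abundant SMAD per length, with 39.4 FPKM in the LINC00472 library and 30.2 FPKM in the control. It had 9658 and 17956 counts there, and its log2 ratio was 0.19 (0.16 to 0.23). SMAD3 (4088), which unlike the main form of SMAD2 binds DNA directly, had 10.3 FPKM in the LINC00472 library and 6.87 FPKM in the control, from 1477 and 2392 counts. Its log2 ratio was 0.39 (0.30 to 0.49). Both stayed short of 2-fold under every scaling tried, with upper quartile factors giving the highest values, 0.58 for SMAD2 and 0.78 for SMAD3. With ratios adjusted for transcript length, the log2 ratio of SMAD2 was -0.38 and its direction thus turned, as it did with intron length (-0.14). SMAD3 stood at -0.02 when adjusted for the transcript length that the deposited counts and FPKM imply. It was at 0.42 adjusted for transcript length and at 0.08 for intron length.

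SMAD4 (4089), the partner shared by both branches, had 3333 counts in the LINC00472 library against 5217 in the control, or 16.2 against 10.5 FPKM. Its log2 ratio of 0.44 (0.38 to 0.51) was the highest of the 10 genes and did not meet the rule, and 29.4% of all genes at the minimum had a ratio as high or higher. Adjusted for transcript length SMAD4 was at -0.13 and for implied length at -0.22, on the other side of equality. Adjusted for intron length it stayed positive, at 0.36. Before adjustment for length, the ratios of SMAD3 and SMAD4 did not differ beyond counting error (difference -0.05, interval -0.16 to 0.06). Adjusted for transcript length, SMAD3 at 0.42 lay above SMAD4, and adjusted for intron length, SMAD3 at 0.08 lay below it.

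The inhibitory SMADs, both themselves feedback targets of the pathway, did not meet the rule either. SMAD6 (4091), which acts mainly on BMP signals, had 188 counts in the LINC00472 library against 375 in the control, or 2.76 against 2.28 FPKM. Its log2 ratio was 0.09, with an interval of -0.17 to 0.35 that included equality. SMAD7 (4092), which inhibits TGF-beta and BMP signals alike, had 264 counts in the LINC00472 library against 982 in the control, or 3.91 against 6.02 FPKM. Its log2 ratio of -0.80 (-1.01 to -0.61), or 1.75-fold lower, was the lowest of the SMADs and short of the rule. It remained negative under all 15 alternatives, between -0.87 and -0.42, though settings that changed only the minimum left its ratio as it was. The ratio of SMAD7 lay below that of SMAD6 (difference -0.90, interval -1.22 to -0.58). Adjusted for intron length, SMAD6 was at -0.24, on the other side of equality. It stayed positive when adjusted for transcript length (0.11) or implied length (0.12).

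Per length, SMAD2 took 38.9% of the summed SMAD level in the LINC00472 library against 38.5% in the control, and SMAD5 21.9% and 20.3%. SMAD7 took 3.86% in the LINC00472 library against 7.66% in the control, and SMAD1 6.50% and 8.57%. The order by FPKM was SMAD2, SMAD5, SMAD4 and SMAD3 from the top in both libraries, with SMAD1, SMAD7 and SMAD6 below. The remaining receptor SMAD of the BMP branch, SMAD9, had 407 counts in the LINC00472 library against 938 in the control, with a log2 ratio of -0.12 (-0.29 to 0.05).

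**Figure D2:**
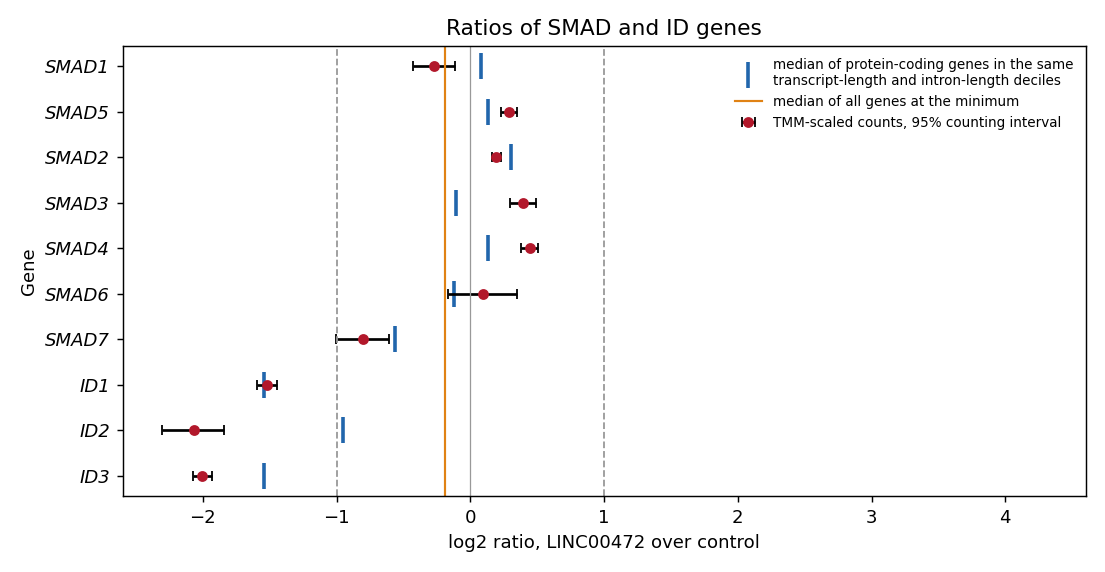
Log2 ratios of LINC00472 over control for the 10 genes (circles) with 95% counting intervals, beside the median of protein-coding genes in the same deciles of transcript and intron length (blue bars) and the median of all genes (orange line). Dashed lines mark 2-fold; the ID genes lie beyond the lower one, and ID1 at -1.52 lies on its blue bar at -1.54.

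The ID genes are short and compact. Because they lay lower together, the 250 bases before the start site of each are printed here from RefSeq (GRCh38.p14), which is not the build of the counts. They are chr20:31605039-31605288 (plus strand) for ID1, chr2:8681806-8682055 (plus strand) for ID2 and chr1:23559502-23559751 (minus strand) for ID3. Sequences run 5′ to 3′ along the gene. Capitals mark matches, on either strand, to CAGAC, the core of the SMAD-binding element, to GTCTAGAC, its palindromic form, and to GGCGCC, a GC-rich element to which SMADs of BMP targets bind. They also mark the TATA box as TATAAA and the common promoter element CCAAT.
ID1: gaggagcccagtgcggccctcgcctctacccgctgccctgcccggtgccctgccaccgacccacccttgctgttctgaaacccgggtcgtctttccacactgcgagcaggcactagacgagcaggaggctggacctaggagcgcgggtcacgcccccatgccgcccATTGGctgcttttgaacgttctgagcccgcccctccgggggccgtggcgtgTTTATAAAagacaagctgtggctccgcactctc
ID2: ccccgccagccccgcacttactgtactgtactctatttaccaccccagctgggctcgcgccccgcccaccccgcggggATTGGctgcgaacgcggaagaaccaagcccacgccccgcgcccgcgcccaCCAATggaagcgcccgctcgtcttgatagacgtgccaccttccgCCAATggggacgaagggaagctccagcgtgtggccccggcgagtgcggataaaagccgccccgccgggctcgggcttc
ID3: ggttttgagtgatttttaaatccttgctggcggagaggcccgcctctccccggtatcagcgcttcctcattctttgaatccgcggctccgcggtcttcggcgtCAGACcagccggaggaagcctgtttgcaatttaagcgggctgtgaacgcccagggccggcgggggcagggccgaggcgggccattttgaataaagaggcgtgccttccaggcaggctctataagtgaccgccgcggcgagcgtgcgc

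The ID1 window held TATAAA 31 bases and a reversed CCAAT 84 bases before the start, and the 2 strands' TATAAA matches overlap. ID2 held 3 CCAAT matches, and ID3 held 1 CAGAC match, 147 bases before its start. No ID window held GTCTAGAC or GGCGCC. The E-box CANNTG, the letters that bHLH factors bind, is not capitalised; it was in 1 ID window (ID2, 205 bases before the start) and in 61.8% of all windows. Over all 35116 RefSeq windows of this length, 38.0% held CAGAC, 0.182% GTCTAGAC, 16.4% GGCGCC, 10.7% TATAAA and 32.01% CCAAT. All 10 genes were found among the RefSeq windows, with 21 windows between them. Of these, 6 held CAGAC, from ID3, SMAD1, SMAD3 and SMAD7, and 6 held GGCGCC, from SMAD1, SMAD2, SMAD3 and SMAD4. The window of SMAD5 held none of the capitalised motifs. The single GTCTAGAC match lay 12 bases before the start of SMAD6. These are matches of letters in short windows, not measured sites.

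ID1 (3397) was at 65.8 FPKM in the LINC00472 library and 180.3 FPKM in the control, from 1734 and 10590 counts. It ranked 646th by FPKM in the LINC00472 library and 311th in the control. The ratio was 2.87-fold lower (log2 -1.52, interval -1.60 to -1.45), and 11.7% of all genes at the minimum had a ratio as low or lower.

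ID2 (3398), which besides E proteins is known to bind the retinoblastoma protein, was at 5.27 FPKM in the LINC00472 library and 19.5 FPKM in the control, from 170 and 1517 counts. Its rank was 9217 in the LINC00472 library against 4026 in the control. It had the lowest ratio of the 10 genes, 4.19-fold lower (log2 -2.07, interval -2.31 to -1.84), and 3.75% of genes were as low or lower. ID2-AS1, an overlapping antisense gene, had 56 counts in the LINC00472 library against 39 in the control. Without a stated strand setting, reads from any bases that ID2 and ID2-AS1 share cannot be assigned to either gene. Whether their exons share bases was not examined.

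ID3 (3399) was at 63.0 FPKM in the LINC00472 library and 222 FPKM in the control, from 1836 and 15655 counts. It ranked 695th and 233rd in these libraries. The ratio was 4.01-fold lower (log2 -2.0, interval -2.07 to -1.93), as low as or lower than for all but 4.52% of genes. ID3 thus led ID1 in the control and lay just below it in the LINC00472 library. Before adjustment for length, ID2 and ID3 shared a ratio within counting error (difference -0.07, interval -0.30 to 0.17). ID1 lay above ID3 by 0.48 on the log2 scale (0.38 to 0.58). Adjusted for transcript length, ID2 at -1.50 lay below ID3 at -0.92, and for intron length they were at -1.42 and -1.36. The remaining family member ID4 had 0 counts in both libraries, which allows up to 0.129 CPM in the LINC00472 library and 0.0605 CPM in the control (3 counts per library).

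Summed over the family, ID transcripts stood at 134 FPKM in the LINC00472 library and 422 FPKM in the control, while SMAD transcripts stood at 101 and 78.6 FPKM. The ratio of summed ID to summed SMAD level was 1.32 in the LINC00472 library against 5.37 in the control. Each of the 21 pairs of an ID gene with a SMAD gene had the lower ratio in the ID gene, with differences from -2.51 (ID2 against SMAD4) to -0.72 (ID1 against SMAD7) on the log2 scale. Over all 45 pairs of the 10 genes, 40 differed beyond their counting interval, not adjusted for the number of pairs. The share among pairs of all genes was not computed, so the 40 are not read as particular to these genes. The differences between paired genes carry no scaling factor, but they do carry the contrast in transcript length described next. With ratios adjusted for transcript length, 20 of the 21 pairs had the lower value in the ID gene, and ID1 at -0.44 lay above SMAD7 at -0.67.

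By GENCODE, transcripts of the ID genes averaged 1113.5 nt for ID1, 1362 nt for ID2 and 1251 nt for ID3, with introns totalling 119.5, 1107 and 626 nt. The SMAD transcripts were longer, from 1812 nt for SMAD1 upward, and SMAD2, SMAD4 and SMAD5 fell in the longest decile of protein-coding transcripts. The length that the deposited counts per FPKM imply, scaled to GENCODE over 5201 genes with 1 transcript, differed for some: it was 2997 nt for SMAD1, 6115 nt for SMAD3, against a GENCODE mean of 2623 nt, and 10422 nt for SMAD2. For the ID genes it was 1075 nt (ID1), 1366 nt (ID2) and 1238 nt (ID3), close to GENCODE. SMAD introns totalled from 27579 nt in SMAD7 to 87400 nt in SMAD2. Across these libraries shorter transcripts had lower ratios. The median log2 ratio was -1.40 in the shortest decile of protein-coding transcripts, where 63.1% of genes were lower, and 0.25 in the longest, where 5.98% were lower. Over the 10 genes Spearman's rho of the ratio with transcript length was 0.85, a description of points that share both libraries.

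Beside protein-coding genes that share its deciles of both transcript and intron length, ID1 did not stand out. Its log2 ratio of -1.52 lay beside the median of -1.54 over 387 such genes, 66.7% of which were lower. ID3 at -2.0 lay below the same median. ID2 at -2.07 lay further below its own, -0.95 over 215 genes, of which 48.4% were lower. Both ID2 and ID3 lay within the 5% to 95% range of their transcript-length deciles, whose lower ends were -2.23 for ID2 and -2.54 for ID3. SMAD7 at -0.80 lay near the median of -0.56 over its 176 genes. With each ratio adjusted to the median of its transcript-length decile, ID2 alone of the 10 met the size rule, at -1.50, while ID3 was at -0.92 and ID1 at -0.44. Of all 13480 genes so adjusted, 2709 were lower. Adjusted for intron length in place of transcript length, ID2 was at -1.42, ID3 at -1.36 and ID1 at -0.87, and ID2 and ID3 met the rule. Among all 13480 genes adjusted in that way, 2929 were lower. With deciles of the implied length, ID2 was at -1.48, ID3 at -0.84 and ID1 at -0.36, and 18 of the 21 pairs of an ID with a SMAD gene had the lower value in the ID gene. The part of length in the lower ID levels was not tested.

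**Figure D3:**
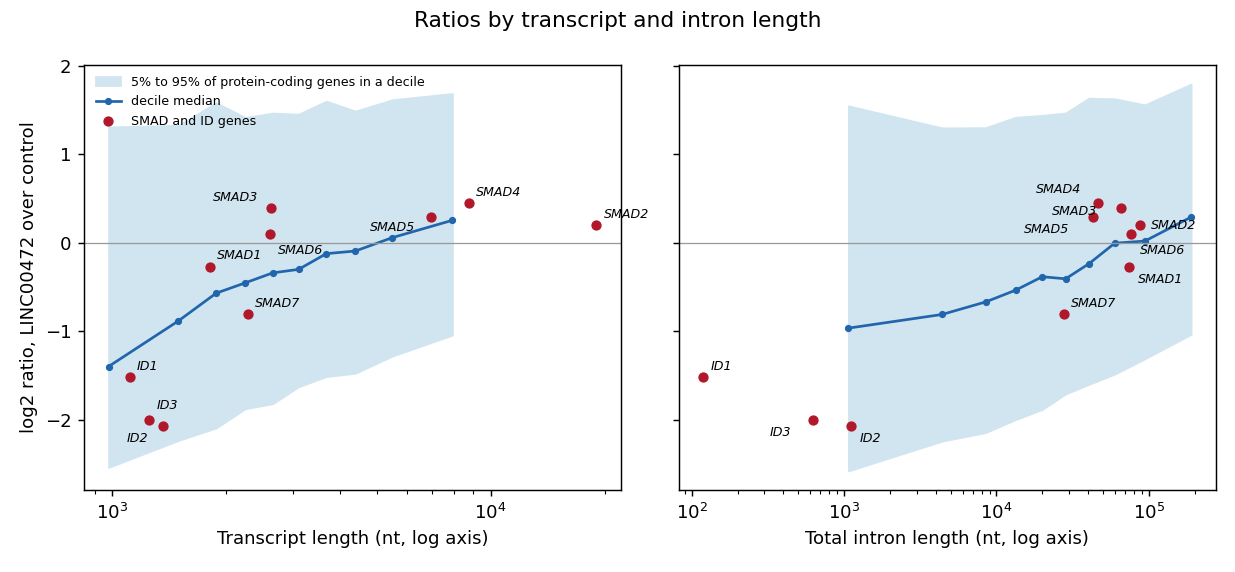
Log2 ratios of LINC00472 over control against transcript length (left) and total intron length (right), both on log axes, with the decile medians of protein-coding genes (line), the range from the 5th to the 95th percentile (band) and the 10 genes (red). The decile median climbs from -1.40 to 0.25 with transcript length, and the ID genes sit at the short end of both panels.

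Genes of the same pathway were counted from 8 lists holding 151 genes, 105 of them at the minimum. Of these 22 were lower and 10 higher, that is 21.0% and 9.52%, against 26.3% and 11.2% of protein-coding genes. Their median log2 ratio was -0.29, against -0.32 for protein-coding genes. With upper quartile factors the balance turned to 11 lower and 21 higher, and adjusted for implied length it was 24 lower and 6 higher. Over all genes, upper quartile factors gave 1993 lower and 3531 higher of 14061, so that turn was not particular to the lists. Adjusted for implied length, 2632 were lower and 2406 higher of all 13979 genes.

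Among ligands and their latent binding proteins, 3 of 17 were lower and 3 were higher. TGFB1 was 2.54-fold lower, with 437 counts in the LINC00472 library against 2358 in the control, and TGFB2 2.07-fold lower, with 236 and 1041. BMP4 was 4.90-fold lower on only 8 counts against 86 in the control. The matrix proteins LTBP1 and LTBP2, of which LTBP1 holds latent TGF-beta, were 2.38-fold and 2.28-fold higher, and GDF9, better known from the oocyte, was 5.45-fold higher (86 against 33 counts). TGFB1 met the rule under 14 of 15 alternatives. Adjusted for transcript length, LTBP1 was at a log2 ratio of 0.87 and LTBP2 at 0.62, and neither met it. With upper quartile factors 0 ligands were lower and 7 higher. BMP4, at a log2 ratio of -1.91 there, left the count because its mean fell below the minimum.

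Of 10 receptors and co-receptors at the minimum, 0 were lower and 0 higher, with log2 ratios from -0.83 (BMPR1A, a BMP type I receptor) to 0.91 (ACVR1, another one) and a median of -0.12. The TGF-beta receptors TGFBR1 and TGFBR2 were at -0.43 (36.7 FPKM in the LINC00472 library, 43.6 FPKM in the control) and -0.72 (11.4 against 16.6 FPKM). The BMP type II receptor BMPR2 was at 0.04 (10.7 against 9.15 FPKM), and the co-receptor TGFBR3, with the most counts of the list in both libraries, at 0.35 (13925 against 23320 counts). ACVR1 met the rule under 5 of 15 alternatives (1.297 with upper quartile factors), and BMPR1A under 2, as lower (-1.40 adjusted for transcript length, -1.44 for intron length).

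Of 9 antagonists at the minimum, 3 were lower and 1 was higher. FSTL3, which binds activins, was 3.39-fold lower (25.02 FPKM in the LINC00472 library, 74.6 FPKM in the control). NBL1, a secreted BMP antagonist, was 2.996-fold lower, and BAMBI, a decoy receptor induced by the pathway, 2.91-fold lower (16.1 against 41.1 FPKM). FSTL3 and NBL1 met the rule under all 15 alternatives, and BAMBI under 14 (-0.95 adjusted for implied length). CHRDL2, a relative of the BMP antagonist chordin, was 2.02-fold higher on 44 counts in the LINC00472 library against 46 in the control. With upper quartile factors 3 antagonists were lower and 3 higher, as with total counts. The higher ones then included CHRD, below the minimum with TMM, with 39 counts in the LINC00472 library against 13 in the control. With that gene added, the median log2 ratio of the list, -0.80 with TMM, became 0.24 and 0.14 under these scalings. FSTL1, the median gene with TMM, stayed negative, at -0.41 with upper quartile factors.

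Of 26 intracellular regulators, 4 were lower and 0 higher. TOB1, an antiproliferative protein that interacts with SMADs, was 3.83-fold lower (6.12 against 19.2 FPKM), STRAP, a receptor-binding protein that assists SMAD7, 2.70-fold lower, and STUB1, a ubiquitin ligase, 2.36-fold lower. CTDSP1, a SMAD phosphatase, was the other, at a log2 ratio of -1.01. Adjusted for transcript length, STUB1 was at -0.67 and CTDSP1 at -0.76, short of the rule. Upper quartile factors gave 2 lower and 2 higher. Of 16 DNA-binding partners and coactivators, 2 were lower and 2 higher. RUNX2, a bone and cancer transcription factor, was 5.70-fold higher (661 against 246 counts) and its relative RUNX1 2.37-fold higher. The stress-responsive factors ATF3 and JUN were 2.41-fold and 2.21-fold lower, and adjusted for transcript length, ATF3 was at -0.70 and RUNX1 at 0.87, short of the rule. Upper quartile factors gave 0 lower and 4 higher.

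Of 24 other target genes of TGF-beta or BMP, 8 were lower and 5 higher, with a median log2 ratio of -0.58. TAGLN, an actin-binding protein, was lowest at -4.18. MSX1, a homeobox gene induced by BMPs, was 6.71-fold lower (25 against 361 counts), and TGFB1I1, a focal adhesion protein, 6.41-fold lower. The matrix gene FN1 was 2.65-fold higher, beside RUNX2; adjusted for transcript length, FN1 was at 0.83. Upper quartile factors gave 6 lower and 5 higher.

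MSX2, BAMBI, HEY1, ATOH8 and RUNX2 of that list were set side by side after their values were seen and describe no theme. BAMBI, HEY1 and RUNX2 were also named by the rule given under processing, while MSX2 and ATOH8 were not. MSX2, a homeobox gene, was at a log2 ratio of -1.71 (80 against 560 counts) and met the rule under all 15 alternatives. BAMBI was at -1.54, HEY1, a bHLH repressor, at -1.23 and ATOH8, a bHLH factor, at -0.90. HEY1 met the rule under 8 of 15 alternatives and ATOH8 under 1. RUNX2, which BMPs can also induce, lay at 2.51, higher under all 15.

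The partners of ID proteins were mixed. TCF3, the E protein bound most often by ID proteins in textbook accounts, was 2.56-fold lower (5.32 FPKM in the LINC00472 library, 12.9 FPKM in the control), and at -0.97 with upper quartile factors, just short of the rule. TCF12 (log2 ratio -0.32) and TCF4 (0.59) did not meet the rule. Of the 10 E proteins and other bHLH genes at the minimum, 4 were lower and 1 higher, with LYL1, a blood-lineage factor, 4.63-fold lower on 10 counts against 101, HEY1 2.34-fold lower and BHLHE41, a circadian repressor, 3.11-fold higher. With upper quartile factors 1 was lower and 1 higher. Of the tissue-specific factors in the list, TWIST1, MYOD1 and HAND1 were at 0 counts in both libraries.

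**Figure D4:**
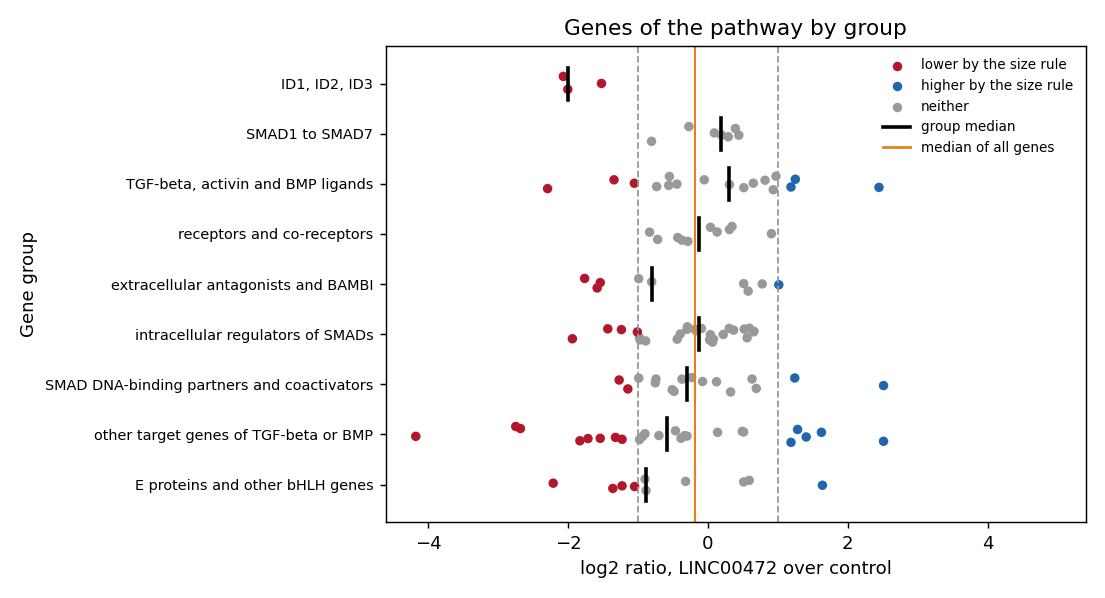
Log2 ratios of LINC00472 over control for the ID genes, the SMAD genes and 7 pathway lists, 1 point per gene at the minimum, with group medians (black bars) and the median of all genes (orange line). No receptor lies beyond 2-fold (dashed lines), and the other target genes spread from -4.18 to 2.51.

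By nearness of log2 ratio, the genes of these lists most like the ID genes were TOB1 (0.07 from the median ID ratio of -2.0), CDKN1A, the cell cycle inhibitor p21 (0.17), and LYL1 (0.21). Likeness was measured over 2 libraries only.

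**Figure D5:**
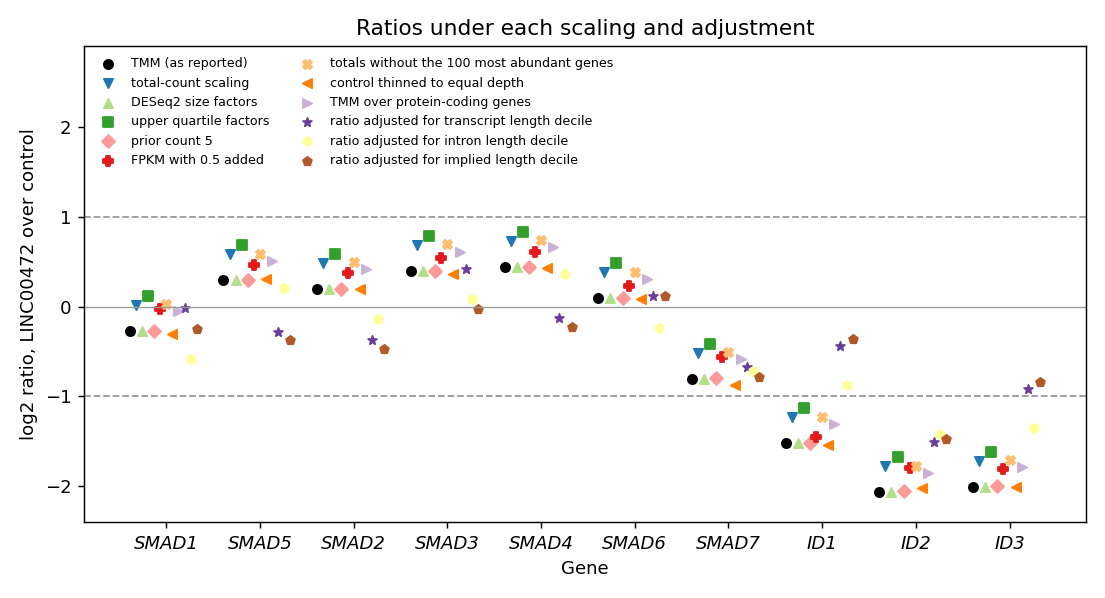
Log2 ratios of LINC00472 over control for each of the 10 genes under TMM scaling (black circles) and each other scaling or adjustment that moved values. The ID genes stay below 0 in all, ID1 ranges up to -0.36 and ID3 up to -0.84 when adjusted for implied length, and upper quartile factors lift SMAD1 to 0.12.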

How the data were processed

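RNA of 2 cultures was sequenced, 1 library per group, grouped by their titles. The authors deposited raw read counts per gene and FPKM in one joint table and in single-library tables, whose counts were identical for all 27685 genes. Per the submitters' processing notes, the genome build was hg19 and the tools were HISAT2 2.1.0, StringTie 1.3.4b, Trimmomatic and bcl2fastq 2.20.0, with no roles stated. The counting method and its use of strand were not given in the sources used here.

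Deposited counts were scaled with TMM factors (1.11 for LINC00472, 0.905 for control) in edgeR 4.0.16 (R 4.3.3). Log2 ratios of LINC00472 over control used a prior count of 0.5, with exact conditional (Clopper-Pearson) 95% intervals of 2 counts. Differences between genes used a log odds ratio with a normal interval. Transcript and intron lengths came from GENCODE 29 through RefSeq accessions, as the mean over matched transcripts, covering 96.2% of genes that reached the minimum. Adjusted ratios subtract the median of protein-coding genes in the same of 10 length deciles and add back that of all of them. An alternative length per gene was taken from the deposited counts per FPKM (geometric mean of both libraries). Gene types came from RefSeq. The calling code was checked on counts simulated with known ratios and counting error only. That check left out variation between cultures, scaling error and the length trend. Alternatives were 11 fixed settings, including DESeq2 1.42.0 size factors, and 4 added after seeing the data. The single-library tables held the same counts, and settings that changed only the minimum left every ratio as it was. Other software was Python 3.11.15 with scipy 1.17.1.

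Named pathway genes were, per list, up to 3 highest and 3 lowest called genes. A gene that this rule named is not reported here. The 3 genes of the lists nearest to the median ID ratio were also named. TGFBR1, TGFBR2, TGFBR3, BMPR2, ACVR1, BMPR1A, CHRD, FSTL1, CTDSP1, MSX2, ATOH8, TCF4, TCF12 and the bHLH genes at 0 were named after their values were seen. The genes and lists were chosen with earlier results of these data known.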

Additional observations from a re-analysis of the deposited data

How the results depend on the processing

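With 1 library per group, no library could be left out and no test run. No paired analysis was possible because each group held a single library. Of the 10 genes, ID2 met the size rule under all 15 alternatives, ID3 under 13 and ID1 under 12. The single-library tables and the settings that changed only the minimum left the ratios of all 10 genes as they were. Those alternatives could not change these calls. Adjustment for transcript length, by GENCODE or as implied by counts per FPKM, left 1 of the 10 genes lower. Over all genes, 2709 of 13480 and 2632 of 13979 were lower with these adjustments. Of the 10 genes, 0 were higher under any alternative. The median log2 ratio of the 10 genes, -0.09 as reported, lies between SMAD1 and SMAD6 and changed sign with the scaling: it was 0.20 with total counts, 0.21 with totals lacking the 100 most abundant genes, 0.30 with upper quartile factors, 0.13 with TMM over protein-coding genes, -0.33 adjusted for transcript length, -0.37 for implied length and -0.41 for intron length. In the pathway lists 10 genes were higher as reported, 16 with total counts, 16 without the 100 most abundant genes, 6 adjusted for implied length and 21 with upper quartile factors. Lower calls there numbered 22 as reported, 11 with upper quartile factors and 14 with total counts. Over all genes, higher calls moved from 2288 as reported to 3576 at a minimum of 0.1 CPM, 3657 with no minimum, 1347 at 5 CPM and 3531 with upper quartile factors, which left 1993 lower calls, against 3341 as reported. The higher side took 40.6% of calls as reported. Total counts made that share 57.9% and moved the median log2 ratio of all genes by 0.29; upper quartile factors made it 63.9% and moved the median by 0.40. Counts are fewest in the LINC00472 library for ID2, SMAD6 and SMAD7 among the 10 genes.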

Other observations

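The deposited FPKM and counts of a gene are linked by the transcript length that entered the FPKM, so counts per FPKM can differ between libraries where a gene has several transcripts. Taken relative to the median of all genes, counts per FPKM of ID1, which has 2 RefSeq transcripts in the table, were 1.09-fold higher in the LINC00472 library than in the control (log2 0.12). For SMAD1, also with 2 transcripts, the log2 value was -0.05. The other 8 genes lay between -0.0014 and 0.0071. Over 4234 genes with 1 transcript, 95% lay between -0.0035 and 0.0059, and over 7399 genes with more they lay between -0.20 and 0.18. ID1 and SMAD1 lay within that wider range. Levels of single transcripts were not analysed here.

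ID2-AS1 was higher by the size rule (log2 ratio 1.59, interval 1.0 to 2.24), on the side opposite to ID2. Of all genes at the minimum 16.3% were higher, against 11.2% of protein-coding genes, so higher calls were more frequent among the other gene types. The share among antisense genes was not computed, and the call is not read as particular to ID2-AS1. SMAD5-AS1, antisense to SMAD5, had 0 counts in the LINC00472 library against 9 in the control.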
